A study of Mus musculus with 5 samples.

Results

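The stretch described here is chr13:68000001-75000000 of the mouse genome (build mm10), which runs from Mtrr and Adcy2 past 3 Iroquois genes in a gene desert to the gene-dense surroundings of Tert. It was chosen by position, with counts of covered restriction fragments per 500 kb of these same libraries in view, so those counts are a description and lend no independent support to the choice. It holds 17895 of the 292200 restriction fragments of chromosome 13 in the tables, and 6.28% of the 284869 fragments more than 1.5 Mb from the bait. All of it lies 26.8 to 33.8 Mb below the bait, a fragment in the promoter region of Pik3r1 at position 101766365.

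Contacts were measured by 4C-seq in 5 libraries from 3 groups of C57/Bl6 mice. Double-positive (DP) thymocytes, sorted for CD4 and CD8 from wild-type mice of 4 weeks, gave 1 library. Skeletal muscle of wild-type (WT) mice and of mice labelled GRko, with genotype KO, gave 2 libraries each, all from animals of 10 to 12 weeks. GR is the usual short name of the glucocorticoid receptor. The labels do not say in which cells or by which allele it was deleted, or whether the replicates are separate animals. P-values here therefore measure only how far these libraries lie apart, which may be technical. Thymocytes and muscle differed in age and preparation as well as in tissue, and these cannot be told apart. No RNA was measured, so cell identity could not be checked on markers.

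In 4C-seq, crosslinked chromatin is cut and ligated, and the pieces of DNA joined to the bait are sequenced, so that a fragment with reads was near the bait in some of the cells. Many megabases away such joins are rare, and neighbouring fragments are pooled to see which stretches are met more often. Chromosome-wide contacts tend to pair active, gene-rich chromatin with its own kind and leave gene deserts apart. Adcy2 encodes an adenylyl cyclase, which makes cyclic AMP, and is known for its expression in brain. Irx1, Irx2 and Irx4 encode homeodomain transcription factors of the Iroquois family, which pattern limb, heart and nervous tissue and lie among long non-coding spans. Tert encodes the catalytic subunit of telomerase. Its neighbours include many genes that most cells use and several membrane transporters.

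The first enzyme, DpnII, cuts at GATC, so each deposited position stands for a piece of DNA between neighbouring GATC sites. The 250 bases upstream of the start sites of 5 genes are shown because the results turn on these places. Mtrr and Adcy2 lie close together at the low end, with Fastkd3 and 1700001L19Rik between them, and differed in which libraries reached them. Tert names the gene-dense end. Ahrr and Lrrc14b are shown because a fragment whose middle lies in this window had reads in thymocytes. Sequences are RefSeq's for GRCm38.p6, 5′ to 3′ on the gene's strand, with GATC in capitals.

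Mtrr (chr13:68582170-68582419, minus strand): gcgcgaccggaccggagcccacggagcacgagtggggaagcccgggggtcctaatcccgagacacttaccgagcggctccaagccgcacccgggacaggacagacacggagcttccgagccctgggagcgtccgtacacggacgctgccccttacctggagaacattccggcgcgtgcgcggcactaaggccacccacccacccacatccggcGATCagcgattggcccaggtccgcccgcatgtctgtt
Adcy2 (chr13:68999542-68999791, minus strand): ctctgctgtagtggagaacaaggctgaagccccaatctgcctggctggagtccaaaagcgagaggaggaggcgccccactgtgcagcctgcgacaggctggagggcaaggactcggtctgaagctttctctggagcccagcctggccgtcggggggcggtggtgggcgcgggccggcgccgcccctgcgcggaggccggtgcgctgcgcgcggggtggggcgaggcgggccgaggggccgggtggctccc
Tert (chr13:73626661-73626910, plus strand): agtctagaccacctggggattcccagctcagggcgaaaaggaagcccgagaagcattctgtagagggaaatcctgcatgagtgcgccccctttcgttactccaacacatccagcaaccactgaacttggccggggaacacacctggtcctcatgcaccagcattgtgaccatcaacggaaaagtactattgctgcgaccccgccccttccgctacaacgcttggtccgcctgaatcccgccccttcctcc
Ahrr (chr13:74292332-74292581, minus strand): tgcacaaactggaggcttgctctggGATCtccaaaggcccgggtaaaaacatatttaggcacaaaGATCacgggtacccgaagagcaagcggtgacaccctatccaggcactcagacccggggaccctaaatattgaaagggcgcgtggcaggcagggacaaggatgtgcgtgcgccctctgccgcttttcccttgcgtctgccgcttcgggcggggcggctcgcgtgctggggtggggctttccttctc
Lrrc14b (chr13:74364001-74364250, minus strand): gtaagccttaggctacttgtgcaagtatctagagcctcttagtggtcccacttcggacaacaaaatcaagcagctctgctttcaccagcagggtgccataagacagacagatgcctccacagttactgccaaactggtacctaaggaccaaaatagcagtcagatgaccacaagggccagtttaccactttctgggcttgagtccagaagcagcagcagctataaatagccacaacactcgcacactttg

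The Mtrr window holds 1 GATC, the Ahrr window 2, and the others none. GATC reads the same on both strands. It was in 41.9% of 32851 windows of this length in the RefSeq table and in 23 of the 47 that belong to coding genes of the stretch. Of the 44 coding genes there, 39 had an entry.

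The 5 libraries differed in depth and in read length, and this touches every count below. Thymocytes, WT replicate 1 and GRko replicate 1 were read to 29 nt after the bait sequence, and both second replicates to 23 nt. The libraries held from 1317351 reads (GRko replicate 2) to 8993436 reads (thymocytes) on chromosome 13, and 3536 to 13581 fragments with at least 1 read, called covered here. Fragments with a single read made up 45.7% of far covered fragments in WT replicate 2 and 48.5% in GRko replicate 2. In the other libraries they made up 9.22% (WT replicate 1), 10.2% (thymocytes) and 14% (GRko replicate 1). Within the stretch single reads were 51.1% and 65.8% of the covered fragments of these second replicates, against 9.09% to 12.9% in the other libraries. Their source was not tested. Results are therefore given also for fragments with 2 or more and 10 or more reads. Counts of fragments were used because PCR copies of one ligation product add reads but no fragment. Confidence intervals cover counting error only.

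The stretch as a whole was covered less than its number of fragments would give, and the shares of thymocytes and muscle overlapped. Covered fragments numbered 310 in thymocytes, 232 and 141 in WT replicates 1 and 2, and 88 and 114 in GRko replicates 1 and 2. As a share of each library's covered fragments beyond 1.5 Mb this was 3.31% in thymocytes (Wilson 95% interval 2.97% to 3.69%). It was 4.19% ± 0.672 (SD, n = 2) in WT muscle and 3.92% ± 1.08 (SD, n = 2) in GRko muscle. Every library lay under the 6.28% that the stretch holds of all far fragments, with ratios from 0.502 to 0.746. Both 23 nt libraries were the highest, at 4.67% and 4.68%, and the 3 libraries of 29 nt lay between 3.15% and 3.72%. With 10 or more reads the 5 shares drew together, at 3.14% in thymocytes, 3.51% and 3.44% in WT, then 2.76% and 2.83% in GRko muscle.

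The 7 Mb on either side were also covered less than their number of fragments would give. At 61 to 68 Mb the libraries lay between 2.55% and 3.61%, and at 75 to 82 Mb between 2.72% and 4.72%, where these held 6.34% and 6.45% of far fragments. With chromosome 13 divided into windows of 7 Mb, the ratio of thymocytes to WT muscle in the stretch was −0.33 ± 0.317 (log2, SE). Its adjusted p was 0.498 by edgeR's quasi-likelihood test with Benjamini-Hochberg adjustment. GRko over WT was −0.09 ± 0.273 with an adjusted p of 0.973 in that edgeR test.

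Where inside the stretch the covered fragments lay differed between the tissues. Thymocytes had 67.4% of theirs in the upper 2 Mb, from 73 to 75 Mb, where Lpcat1, Slc6a3, Tert, Brd9, Sdha and Cast lie. The muscle libraries had 33.2% and 28.4% (WT) and 34.1% and 25.4% (GRko) there, where 28.9% of the stretch's fragments fall. From 68.5 to 69.5 Mb, with Adcy2 and the span above it, the order turned. Thymocytes had 5.16% of their covered fragments in it, WT muscle 23.3% and 21.3%, and GRko muscle 26.1% and 15.8%, where 13.9% of the fragments fall.

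**Figure D1:**
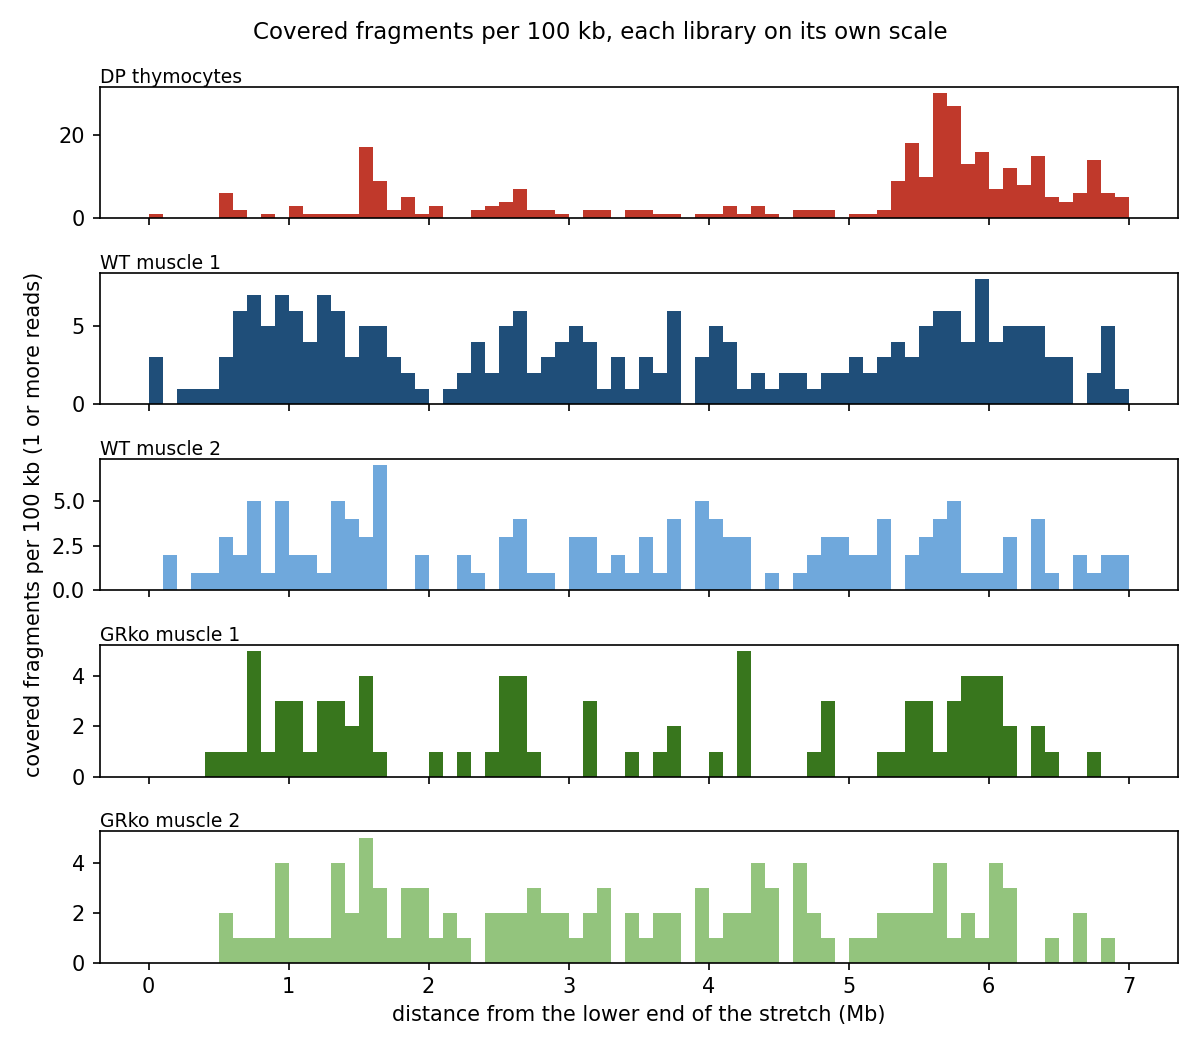
Covered fragments along the stretch per 100 kb in each of the 5 libraries, against the distance from its lower end in Mb. The thymocyte library peaks at 30 covered fragments in a 100 kb bin near Tert, while the highest bin of any muscle library holds 8. These counts are not scaled to depth, and thymocytes had 9363 far covered fragments against 2434 to 6244 in muscle. Thymocytes left 13 of 70 bins empty, within the muscle range of 4 (WT replicate 1) to 30 (GRko replicate 1).

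Thymocytes were compared with WT muscle over all 500 kb windows beyond 1.5 Mb, as covered fragments per window in edgeR with all 5 libraries. The error comes from the muscle libraries alone, since thymocytes gave 1 library. At an adjusted p under 0.05, 4 of the 14 windows of the stretch passed, 3 lower and 1 higher in thymocytes. Since the stretch was chosen with these counts known, the calls describe it and are no independent support. Over all 226 far windows 24 passed (10.6%), 7 higher (3.1%) and 17 lower (7.52%). DESeq2 called 0 of the 226, with 16 at an unadjusted p under 0.05. The median log2 ratio was −1.15 over the 14 windows and −0.21 over all far windows.

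The low end, with Adcy2, held both of the smallest adjusted p-values of the stretch. From 68.5 to 69.0 Mb, where coding gene spans, mostly that of Adcy2, take up 85.6% of the bases, thymocytes had 9 covered fragments. WT muscle had 28 and 16, and GRko muscle 11 and 9. As shares of far covered fragments these were 0.096% in thymocytes (Wilson 0.051% to 0.183%), 0.448% and 0.529% in WT and, in GRko muscle, 0.394% and 0.370%. All 4 muscle libraries lay above the thymocyte interval. The ratio of thymocytes to WT was −2.28 ± 0.490 (log2, SE), with an adjusted p of 0.00179 in edgeR. From 69.0 to 69.5 Mb, nearly all of it the span between Adcy2 and Tent4a, the counts were 7 in thymocytes, 26 and 14 in WT and, in GRko muscle, 12 and 9. The ratio was −2.50 ± 0.534, with an edgeR adjusted p of 0.00179. Against WT replicate 1, which has the same read length, the log2 ratios of these windows were −2.22 and −2.48. In windows of 250 kb the lowest ratio of those called in the stretch was at 68.75 to 69.0 Mb, inside Adcy2, at −4.30 ± 0.842. That at 69.25 Mb passed too, at −3.33 ± 0.758. Those at 68.5 Mb (−1.32 ± 0.581) and 69.0 Mb (−1.80 ± 0.695) did not pass. In windows of 1 Mb the ratio was −2.45 ± 0.796 at 68 Mb, which passed, and −0.76 ± 0.377 at 69 Mb, which did not.

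From 71.0 to 73.0 Mb, across the desert with Irx1 and Irx2, the thymocyte value was below WT muscle in each of 4 windows, and 1 passed. From 71.5 to 72.0 Mb, which holds Irx1, there were 5 covered fragments in thymocytes, 14 and 13 in WT, then 3 and 8 in GRko muscle. The shares were 0.053% in thymocytes, 0.224% and 0.430% in WT, then 0.107% and 0.329% in GRko muscle, so the thymocyte share was below all 4. The ratio was −2.46 ± 0.806 with an edgeR adjusted p of 0.0453. This call was lost in 6 of 12 alternative settings with 500 kb windows. Without WT replicate 1 the log2 ratio was −2.94 ± 1.20 with an edgeR adjusted p of 0.123, and without WT replicate 2 it was −2.02 ± 1.25 with an adjusted p of 0.380. The other 3 of these windows had log2 ratios of −2.01 ± 0.784 (71.0 Mb), −1.45 ± 0.666 (72.0 Mb) and −1.64 ± 0.858 (72.5 Mb) and did not pass.

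The window with Tert was the 1 window that passed as higher in thymocytes. From 73.5 to 74.0 Mb, with 11 coding genes, thymocytes had 96 covered fragments, WT muscle 29 and 14, and GRko muscle 15 and 10. The shares were 1.03% in thymocytes (Wilson 0.840% to 1.25%), 0.464% and 0.463% in WT and, in GRko muscle, 0.537% and 0.411%. The muscle libraries lay close together and below the thymocyte interval. The ratio was 1.14 ± 0.332, or 2.20-fold, with an edgeR adjusted p of 0.0257. Without WT replicate 1 the log2 ratio was 1.14 ± 0.453 with an edgeR adjusted p of 0.114. In windows of 250 kb its parts had ratios of 1.20 and 1.02 with edgeR adjusted p-values of 0.0574 and 0.0924, so at that size no window of the stretch passed as higher. The log2 ratio to that library alone was 1.14. The windows on either side had ratios of 0.28 ± 0.459 (73.0 Mb), 0.59 ± 0.365 (74.0 Mb) and 0.92 ± 0.559 (74.5 Mb) and did not pass.

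Counted without a fit, the thymocyte share lay above all 4 muscle libraries in 4 of the 14 windows, all from 73.0 Mb up, where 24.3% of far windows did so. At 73.0 Mb the margin was slight, since WT replicate 2 and thymocytes both had 0.331% and GRko replicate 2 had 0.329%. The thymocyte share lay below all 4 in 8 windows, all from 68.5 to 73.0 Mb, where 38.1% of far windows did so. The remaining windows, at 68 and 69.5 Mb, lay within the muscle range. With 2 or more reads 6 of 13 tested windows passed in edgeR (19.9% of far windows), 4 lower (11.3%) and 2 higher (8.6%), the second being that at 74.5 Mb with Erap1 and Cast. With 10 or more reads 4 passed (18.4%), 3 lower (10.4%) and 1 higher (8.02%), the same windows as with any read.

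**Figure D2:**
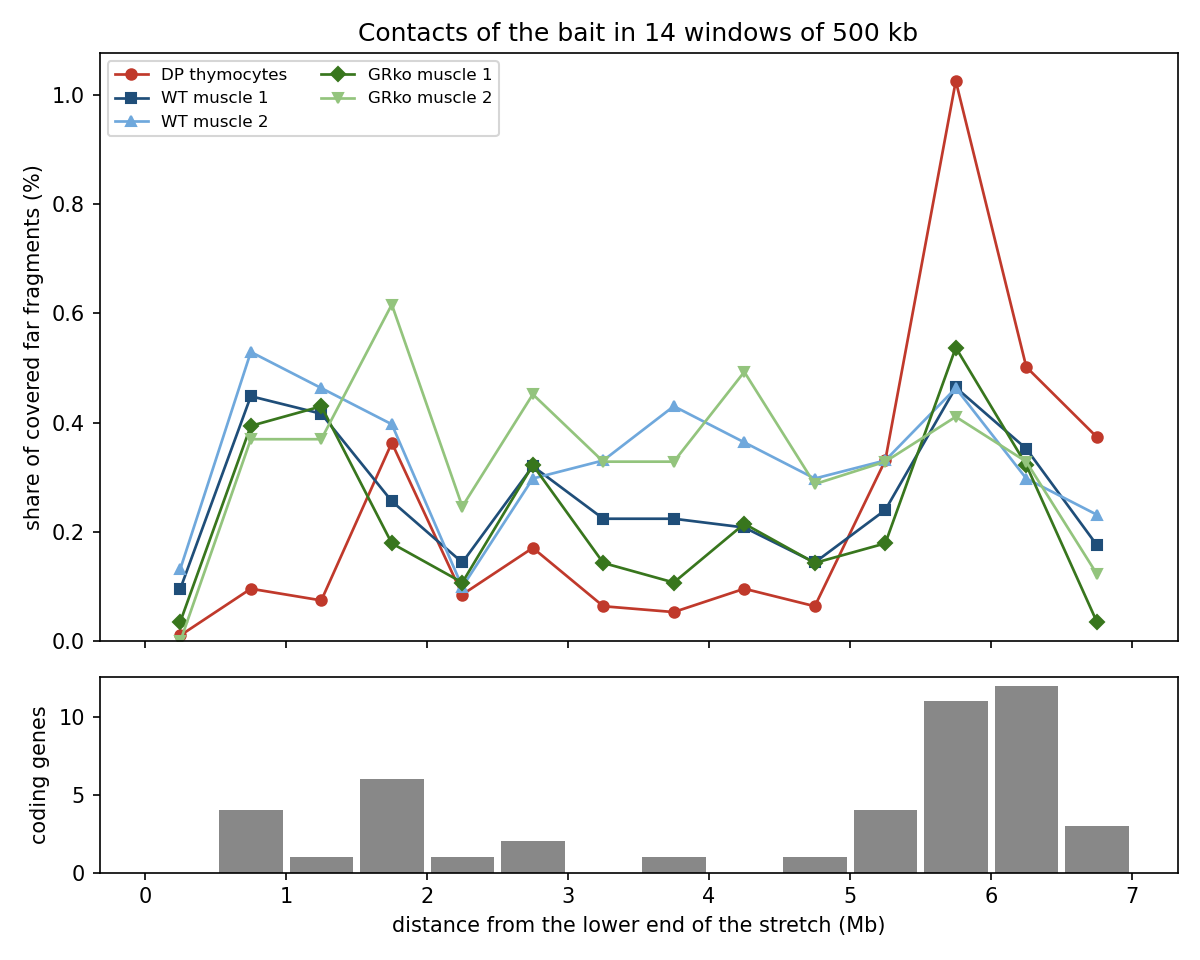
Share of each library's far covered fragments in each 500 kb window of the stretch, by distance from its lower end, with a symbol per library, above the number of coding genes per window. Thymocytes stand below the muscle libraries over the windows with Adcy2, Irx1 and Irx2 and above them over the last 3 windows, at 1.03% against 0.411% to 0.537% in the window with Tert.

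Between the genotypes, GRko against WT muscle, no window of the stretch passed. Of its 14 windows 0 passed in edgeR, as did 0 of 225 far windows (0%), and the smallest adjusted p in the stretch was 0.994. At an unadjusted p under 0.05 there were 0 of 14 and 7 of 225 windows in edgeR, and 0 of 225 in DESeq2. The log2 ratios of GRko over WT ran from −2.33 ± 1.31 at 68 Mb, with 1 and 0 covered fragments in GRko and 6 and 4 in WT muscle, to 0.44 ± 0.804 at 70.0 Mb. At 68 Mb the ratio was −5.13 without GRko replicate 1, which leaves the library with 0, so that this fitted value is no measured fold, and −1.53 without GRko replicate 2. They were above 0 in 6 windows and below 0 in 8, with a median of −0.07 against 0.03 over all far windows. The window with Tert had 0.04 ± 0.370, and that with most of Adcy2 −0.32 ± 0.388. At 74.5 Mb, with Erap1 and Cast, counts were 1 and 3 in GRko and 11 and 7 in WT muscle, a ratio of −1.33 ± 0.886. It was −0.66 without GRko replicate 1 and −2.36 without GRko replicate 2. Shares of the GRko and WT libraries did not overlap in 4 of the 14 windows, where 27.9% of far windows did not. Standard errors ran from 0.370 to 1.31 on the log2 scale, and 2 libraries a group could not show differences within them.

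**Figure D3:**
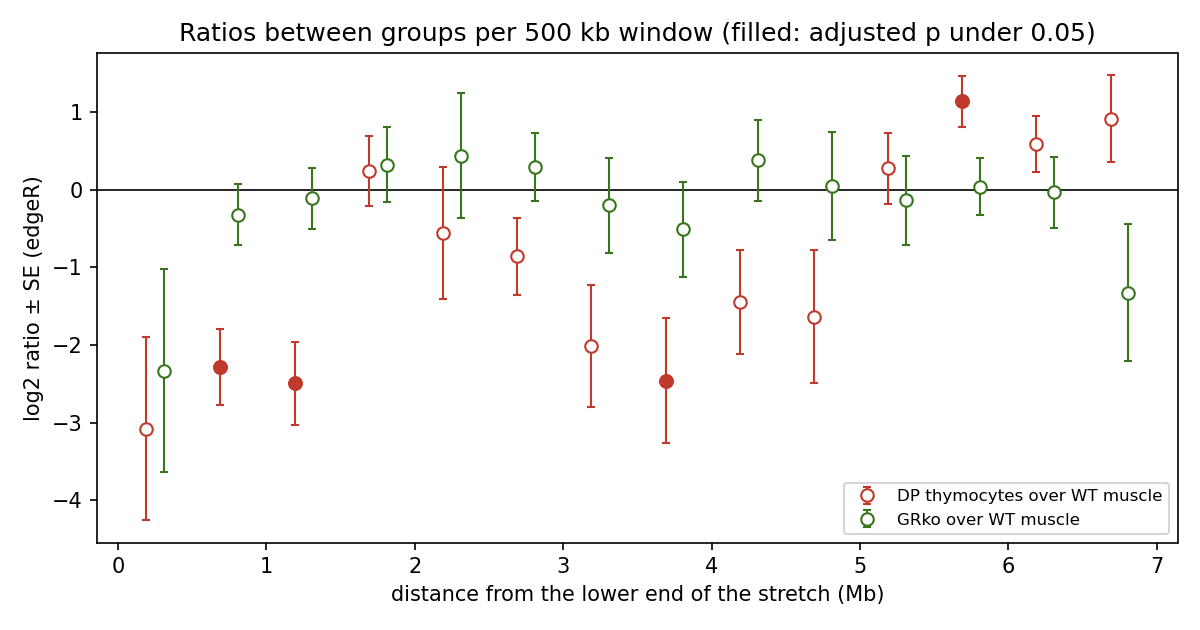
Log2 ratios from edgeR for thymocytes over WT muscle and GRko over WT muscle in the 14 windows, against distance from the lower end of the stretch. Standard errors were worked back from the F statistic of the test. Filled points mark the 4 windows with an adjusted p under 0.05, at −2.28, −2.50, −2.46 and 1.14, all of them in the comparison of thymocytes with WT muscle.

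Gene-dense windows had a larger share of their fragments covered than gene-poor windows in all 5 libraries, by a wider margin in thymocytes. The 3 windows with 5 or more coding genes (69.5, 73.5 and 74.0 Mb) held 3790 fragments, and the 7 windows with 1 or none held 8922. In thymocytes 4.67% of the fragments in gene-dense windows and 0.471% of those in gene-poor windows were covered, a ratio of 9.92 (7.10 to 13.9 from counting error). In WT muscle the ratio was 1.73 and 1.29, and in GRko muscle 2.07 and 1.55. No muscle library came near the thymocyte ratio. With 2 or more reads it was 12.0 in thymocytes and 1.81 to 2.35 in the muscle libraries, and with 10 or more reads 11.5 and 1.57 to 3.40. By reads in place of fragments the GRko mean was 0.806, below 1. These windows include those whose counts were compared above, so the ratio restates them by gene content and was not tested. To compare equal numbers of fragments, the 848 far fragments with most reads were taken from each library, which leaves read depth unequal. The ratio was then 11.8 in thymocytes, 2.14 and 3.36 in WT and, in GRko muscle, 1.18 and 1.83. As a description over the 14 windows, Spearman's rho between the number of coding genes and the share of fragments covered was 0.88 in thymocytes. It was 0.67 and 0.23 in WT, then 0.49 and 0.21 in GRko muscle, lower in each 23 nt library.

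The spans without coding genes around the Iroquois genes were the main desert of the stretch. They run for 1116 kb from Adamts16 to Irx1, 661 kb from Irx1 to Irx2 and 625 kb from Irx2 to Irx4, and hold 6158 fragments, 34.4% of the stretch. Covered fragments there numbered 32 in thymocytes, 64 and 49 in WT, then 18 and 40 in GRko muscle. They were 10.3% of the stretch's covered fragments in thymocytes, 27.6% and 34.8% in WT and, in GRko muscle, 20.5% and 35.1%. With single reads counted, those of 23 nt alone among the 5 libraries reached the 34.4% that the fragments alone would give. With 2 or more reads the counts were 24 of 270, 55 of 204, 23 of 69, 17 of 80 and 12 of 39 in the same order. At that minimum no library reached 34.4%. The span from Adcy2 to Tent4a, also without a coding gene, had 6 covered fragments of 1223 in thymocytes and 26, 14, 12 and 9 in the muscle libraries. The span below Ice1, from the model gene Gm47655, had 12, 14, 6, 7 and 8 of 1450. As shares of far covered fragments these were 0.128% in thymocytes and 0.199% to 0.329% in muscle. In each of the 3 Iroquois spans, too, the thymocyte share was the lowest of the 5, at 0.128%, 0.117% and 0.096% against 0.179% to 0.794% in muscle. Over all far windows of 500 kb 38.1% had the thymocyte share lowest. The spans overlap windows already counted above, so they restate those counts.

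At the low end 10 listed genes hold 1705 fragments, of which 34 were covered in thymocytes, 37 and 20 in WT and, in GRko muscle, 14 and 17. Adcy2 held most of the covered fragments of the list in 3 of the 4 muscle libraries, all but GRko replicate 2. Its span of 380 kb holds 941 fragments, with 2 covered in thymocytes, 24 and 13 in WT, then 9 and 7 in GRko muscle. Thymocytes, the deepest library, had the fewest. Gene counts below are set against unequal depths, so the order of shares of far covered fragments is given with them. By that share thymocytes were above all 4 muscle libraries in 4 of the 10 genes (Mtrr, Ube2ql1, Med10 and Ice1). Of 812 far gene spans 21.7% were so. Thymocytes were below all in 2 (Adcy2 and Nsun2), as in 5.17% of far gene spans. Nearby Mtrr, whose enzyme restores the activity of methionine synthase, ran the other way, with 5 of 39 fragments covered in thymocytes, 2 and 1 in WT and 0 in both GRko libraries. Within 5 kb of the Mtrr start site 5 of 23 fragments were covered in thymocytes and 1, 1, 0 and 0 in muscle. Around the Adcy2 start site 0 of 25 were covered in thymocytes, which allows up to 3 counts, and 2, 0, 1 and 0 in muscle. Tent4a, a poly(A) polymerase, had 7 of 67 fragments covered in thymocytes against 2, 0, 4 and 3 in muscle. As shares these were 0.0748% in thymocytes and 0.143% and 0.123% in both GRko libraries, which were higher, against 0.032% and 0% in WT. Med10, a subunit of the Mediator complex, had 3 covered in thymocytes and 0 in each muscle library. Srd5a1, a steroid reductase, had 5 in thymocytes and 2, 4, 0 and 1 in muscle, and its share was highest in WT replicate 2, at 0.132% against 0.0534% in thymocytes. Nsun2, an RNA methyltransferase, had 1 in every library. Ice1, part of a complex for small nuclear RNA transcription, had 5 in thymocytes and 2, 0, 0 and 1 in muscle. Fastkd3, Ube2ql1 and the protease gene Adamts16 had 1 to 3 covered fragments in thymocytes and 0 to 4 in muscle.

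The Iroquois genes themselves were almost without reads. Their 72 fragments had 0 covered in thymocytes, in WT replicate 1 and in GRko replicate 1, which allows a share of up to 4.17%. WT replicate 2 had 1 in Irx2, and GRko replicate 2 had 1 in Irx1. Irx4 had 0 of 32 covered in all 5 libraries, which allows up to 9.38% in each. At this size no difference between the groups was detectable in the genes.

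The 22 listed genes of the gene-dense end hold 1693 fragments, with 98 covered in thymocytes (5.79%), 36 and 16 in WT (2.13% and 0.945%) and 17 and 11 in GRko muscle (1.00% and 0.65%). At least 1 fragment was covered in 21 of the 22 genes in thymocytes, in 17 and 11 in WT and in 11 and 8 in GRko muscle. These counts rise with depth, so shares of far covered fragments were compared. The thymocyte share was above all 4 muscle libraries in 8 of the 22 (Lpcat1, Tert, Slc6a19, Slc12a7, Nkd2, Trip13, Exoc3 and Ccdc127) and below all in 0. Over all 44 coding genes of the stretch it was above in 14 and below in 2, where 21.7% and 5.17% of 812 far gene spans were so.

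Among transporters of amino acids, dopamine and ions, thymocyte counts ran from 3 to 15 covered fragments. Slc12a7, a potassium and chloride cotransporter, had 15 of 190 fragments covered in thymocytes, 4 and 2 in WT, then 3 and 0 in GRko muscle. Slc6a19, a neutral amino acid transporter of gut and kidney, had 12 of 60 in thymocytes (20%), 0 and 2 in WT and, in GRko muscle, 0 and 1. Its relative Slc6a18 had 3 in thymocytes and 2, 0, 0 and 1 in muscle. Slc6a3, the dopamine transporter, had 3 of 113 in thymocytes and 4, 1, 1 and 0 in muscle. Slc9a3, a sodium and proton exchanger, had 6 in thymocytes and 4, 3, 1 and 3 in muscle. By share, thymocytes lay within the muscle range in Slc6a18, Slc6a3 and Slc9a3.

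Tert had 4 of 59 fragments covered in thymocytes, 1 and 0 in WT and, in GRko muscle, 0 and 1. Within 5 kb of its start site 3 of 25 were covered in thymocytes, 0 in 3 muscle libraries and 1 in GRko replicate 2. The fragment with its middle in the Tert window printed above had no reads in thymocytes. Clptm1l, next to Tert, had 4 in thymocytes and 1, 2, 0 and 1 in muscle. Its share was highest in WT replicate 2, at 0.0662% against 0.0427% in thymocytes. Lpcat1, an enzyme of membrane lipids that is known for its part in lung surfactant, had 12 of 107 in thymocytes, 0 and 1 in WT, then 3 and 1 in GRko muscle.

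Among chromatin, cell cycle and signalling genes, Brd9, a subunit of a SWI/SNF chromatin remodeller, had 4 fragments in thymocytes and 3, 1, 0 and 0 in muscle. Trip13, an ATPase of the spindle checkpoint, had 4 in thymocytes and 2, 0, 1 and 0 in muscle. Nkd2, an inhibitor of Wnt signalling, had 6 in thymocytes and 1, 1, 1 and 0 in muscle. Exoc3, of the exocyst complex, had 7 in thymocytes and 2, 1, 1 and 0 in muscle. Ahrr, the repressor of the aryl hydrocarbon receptor, had 4 in thymocytes and 3 in WT replicate 1. The fragment in its printed window, at position 74292383, had 62 thymocyte reads. Ccdc127 had 5 in thymocytes and 1 in WT replicate 1. Lrrc14b, which lies within the Ccdc127 span, shares these fragments in part. The fragment at 74364012 in the printed Lrrc14b window had 478 thymocyte reads. Sdha, a subunit of succinate dehydrogenase, had 2 in thymocytes and 1, 1, 0 and 0 in muscle. Pdcd6, Mrpl36, Ndufs6, Tppp, Cep72 and Zdhhc11 had 0 to 2 in thymocytes and 0 to 3 in muscle. In Brd9, Ahrr, Lrrc14b and Sdha the thymocyte share of far covered fragments lay within the muscle range.

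At the upper edge Cast, which encodes the calpain inhibitor calpastatin, had 14 of 309 fragments covered in thymocytes, 2 and 1 in WT, then 1 and 2 in GRko muscle. Erap1, an aminopeptidase that trims peptides for antigen presentation, had 3 of 155 in thymocytes and 0, 1, 0 and 1 in muscle. By share of far covered fragments, thymocytes lay within the muscle range in Erap1. They had 0.0320%, against 0.0331% in WT replicate 2 and 0.0411% in GRko replicate 2. Pcsk1, Glrx and Rhobtb3, on the same list, lie above 75 Mb.

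The share of covered fragments that lay in or near genes was highest in thymocytes. Inside coding gene spans lay 49.7% of the thymocyte fragments of the stretch (Wilson 44.1% to 55.2%), 33.6% and 29.1% in WT and, in GRko muscle, 37.5% and 28.1%, where 22.8% of all fragments lie. Over all far fragments it was 52.8% in thymocytes and 39.0% to 46.4% in muscle, with 33.2% of all fragments. Within 5 kb of a coding start site lay 19.7% in thymocytes (Wilson 15.6% to 24.5%), 7.76% and 6.38% in WT and, in GRko muscle, 6.82% and 7.02%, where 4.97% of all fragments lie. Over all far fragments it was 11.4% in thymocytes and 6.37% to 7.02% in muscle. With 1 thymocyte library these differences between tissues have no replicate check in thymocytes.

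**Figure D4:**
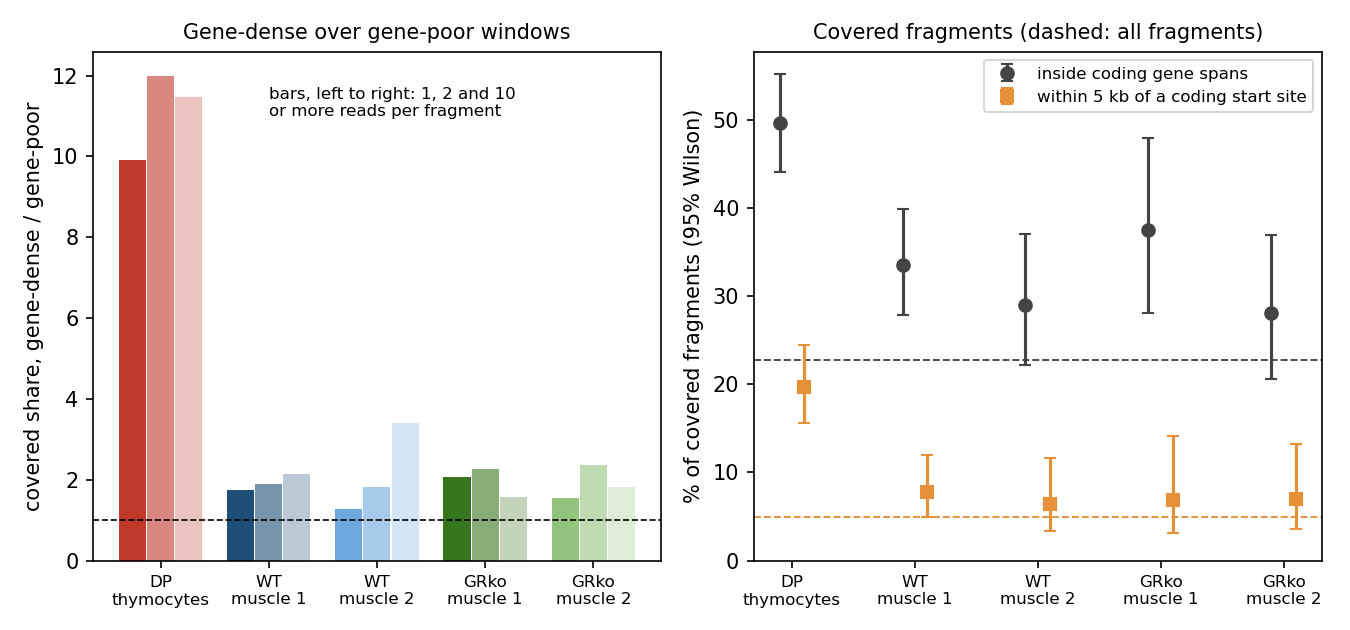
Left, the ratio of the share of fragments covered in gene-dense windows to that in gene-poor windows for each library, with bars for 1, 2 and 10 or more reads and a dashed line at 1. Right, the percentage of covered fragments inside coding gene spans and within 5 kb of a coding start site, with 95% Wilson intervals and dashed lines for all fragments of the stretch. Thymocytes stand at 9.92 to 12.0 on the left and at 49.7% and 19.7% on the right, above each muscle library.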

How the data were processed

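4C-seq libraries were made with DpnII and Csp6I as cutters, per the labels' protocols. The authors deposited 1 table per library with the number of reads on each fragment of chromosome 13. These counts are raw whole numbers with no normalization, and a header line gives the bait, per the file headers. The submitters' processing notes name bcl2fastq, Bowtie 1.0.0 and mm10. The sources used here do not give how reads were assigned to fragments, or any filter. Positions were checked to be the middles of DpnII fragments in all 344 cases that the promoter sequences allowed. Up to 3 fragments next to the bait were missing from some tables.

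Covered fragments (1 or more reads) were summed in 500 kb windows beyond 1.5 Mb of the bait. Windows with at least 10 covered fragments went into edgeR's quasi-likelihood test (edgeR 4.0.16 in R 4.3.3), with covered far fragments as library size and Benjamini-Hochberg adjustment over all windows. Standard errors of edgeR ratios were worked back from the test, as the absolute log2 ratio divided by the square root of its F statistic. GRko and WT were compared in the 4 muscle libraries. DESeq2 1.42.0, TMM and other thresholds, window sizes and library sets were alternatives. The test was run first on simulated data. Gene spans came from RefSeq's annotation of GRCm38.p6, whose coordinates are those of mm10. Named genes were lists by position, and named fragments those with 10 or more reads in at least 2 libraries or most reads in 1. Of the listed genes, Lnpep was not matched on chromosome 13. The stretch, windows and gene lists were chosen with earlier results of these data known.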

Additional observations from a re-analysis of the deposited data

How the results depend on the processing

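Of 13 settings with 500 kb windows, the windows at 68.5 and 69.0 Mb were called lower in thymocytes in 12 (all but DESeq2). That at 73.5 Mb was called higher in 11 and that at 71.5 Mb lower in 7, and these 4 kept their direction in all. Other window sizes are not in this count. In windows of 250 kb those at 68.75 and 69.25 Mb passed, and those at 68.5 and 69.0 Mb did not. In windows of 1 Mb that at 68 Mb passed as lower and that at 69 Mb did not pass. Far windows called between thymocytes and WT muscle numbered 24, of which 4 lay in the stretch. They were 13 with TMM, which moved log2 ratios by a median of 0.239, 0 with DESeq2 (0 in the stretch), 39 in 250 kb, 14 in 1 Mb and 0 in 7 Mb windows (0 in the stretch), 44 with 2 or more and 39 with 10 or more reads. They were 48 with thymocytes and WT alone, 44 against the mean of all muscle, and 12 to 50 without 1 library (2 to 6 in the stretch). Without WT replicate 1 they were 12, without GRko replicate 1 50 and without GRko replicate 2 49. With all covered fragments of the chromosome as library size 48% of calls were higher, against 29.2%. At 69.5 Mb the log2 ratio was 0.24, −0.13 without WT replicate 1 and 0.50 without WT replicate 2. GRko over WT at 70.0 Mb was 0.44, −0.17 with 2 or more reads and −0.24 to 0.93 without 1 replicate, the lowest without GRko replicate 2. The causes were not tested. GRko against WT had 0 calls in every setting, also with the replicate block. Same-numbered libraries deviated together (r = 0.343 over 225 windows), but the number coincides with read length and the labels do not pair them. The share of the stretch was 3.47% (WT) and 2.80% (GRko) with 10 or more reads, 5.47%, 5.22% and 4.79% (thymocytes) on the lower side of the bait alone, 4.97% (WT) and 3.95% (thymocytes) beyond 5 Mb, 3.09% (WT) by reads, and 3.24% (WT) and 2.71% (GRko) with equal numbers of fragments. The ratio of gene-dense to gene-poor coverage was 1.86 (WT) and 2.31 (GRko) with 2 or more reads, 2.77 (WT) with 10, 2.42 (WT) and 0.806 (GRko) by reads, 2.75 (WT) with equal numbers, and 6.34 (thymocytes) with windows classed by gene span.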

Other observations

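Few fragments of the stretch were met in more than 1 library. Of 835 covered in any library, 42 were covered in 2 or more (5.03%), against 8.81% of all far fragments, and with 10 or more reads 14 of 446 (3.14%), against 5.90%. The libraries covered 0.492% to 1.73% of the fragments of the stretch and 0.854% to 3.29% of all far fragments. Recurrence was not adjusted for this difference in coverage. The fragment at 71728685, in the desert 229.5 kb from Irx1, was the only one of the stretch with 10 or more reads in all 5 libraries, with 932 in thymocytes, 79 and 595 in the WT libraries and 44 and 11 in those of GRko. In Adcy2 the fragment at 68799450 had 3155 reads in WT replicate 2 and 1966 in GRko replicate 2, both of 23 nt, and none in the others. The fragment at 69479076, below Tent4a, was also read in these libraries alone, with 1166 and 733 reads. In Nkd2 the fragment at 73832226 had 1328 reads in thymocytes and 997 in GRko replicate 1. In Exoc3 the fragment at 74188187 had 1235 reads in thymocytes and 628 in WT replicate 1. In Mtrr the fragment at 68581858 had 3361 reads in WT replicate 1 and 14 in thymocytes.

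In GRko replicate 2 the fragment at 72231088, between Irx1 and Irx2, had 13194 reads, 47% of all its reads there, and the top fragments of the other libraries held 3.68% to 28.2%. Runs without a covered fragment were measured between covered fragments of the stretch, so runs that touch its edges were left out. The longest such run was 518 kb in thymocytes, from 68057417 to 68575786 and ending inside Mtrr. It was 492 kb in GRko replicate 1, from 72297844 to 72789569 across Irx2, and 189 to 273 kb in the other libraries. GRko replicate 2 had 0 covered fragments in the 500 kb window at 68 Mb, so its run at the lower edge was at least 500 kb. Thymocytes therefore did not stand apart from that library. With 2 or more reads the longest run between such fragments was 346 kb in thymocytes and 352 and 569 kb in WT replicates 1 and 2. It was 492 and 672 kb in GRko replicates 1 and 2. At that minimum the 500 kb window at 68 Mb was empty in thymocytes, WT replicate 2 and GRko replicate 2. Their runs at the lower edge were thus at least 500 kb, and these values do not order the libraries.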
